A study of Mus musculus with 8 samples.

Results

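The nuclear-encoded oxidative phosphorylation (OXPHOS) genes were taken from the table by symbol, as the Nduf genes, Sdha to Sdhd, the Uqcr genes, the Cox4 to Cox8 genes and the Atp5 genes. Of 95 rows that matched, 89 had a mean level of at least 0.5 RPKM (reads per kilobase of transcript, scaled to the size of the library) over the 8 libraries and were kept, out of 12605 genes that passed the same limit. By complex they comprised 44 genes of complex I, 4 of complex II, 7 of complex III, 16 of complex IV and 17 of complex V, and 1 pseudogene, Uqcrh-ps1. The symbols also brought in genes that are no subunits of a complex, namely 8 assembly factors of complex I (the Ndufaf genes), the supercomplex factor Cox7a2l and the Atp5-related genes Atp5s and Atp5sl. Just inside the limit lay Sdhd at 0.599 RPKM and Uqcrh-ps1 at 0.605 RPKM. Just outside lay the pseudogene Atp5c1-ps at 0.414 RPKM and Ndufa4l2, a relative of Ndufa4 known from hypoxic cells, at 0.263 RPKM. Cox6a2, the muscle isoform of COX6A, stood at 0.0185 RPKM, and Uqcr11, Cox8c and Cox7b2 were listed at 0 in all 8 libraries.

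Oxidative phosphorylation is carried out in the inner mitochondrial membrane. Complex I and complex II feed electrons from NADH and succinate into ubiquinone, complex III passes them to cytochrome c, complex IV passes them to oxygen, and complex V, the ATP synthase, uses the resulting proton gradient to make ATP. Most subunits are encoded in the nucleus and imported, and a few core subunits of complexes I, III, IV and V are encoded by mitochondrial DNA. T cells are known to enlarge their mitochondrial mass after activation while they also raise glycolysis.

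RNA was measured in splenic CD4+ T cells of 8-week-old mice whose parents drank water with 10 ppm CdCl2 (Cd offspring) or plain water (control offspring). The Cd water was given before mating and through pregnancy. All mice were of the strain C.Cg-Foxp3tm2Tch/J, which carries a green fluorescent reporter in Foxp3, the defining gene of regulatory T cells. Cells were isolated by negative selection and sorted, the methods naming CD4+CD25- conventional T cells for the sequencing, and were lysed at 0 hours or after 16 hours with anti-CD3/CD28 beads, which engage the T cell receptor and its costimulator. The 4 groups were unstimulated and stimulated cells of control offspring and unstimulated and stimulated cells of Cd offspring, with 2 libraries each, numbered 6 and 7 in the labels. The study treats each litter as an independent exposure, but the labels do not tie libraries to animals or litters, so the p-values measure the spread between these libraries, which may be partly technical. The libraries held 15542732 to 25486791 reads as recovered from the values, and the levels are per length and relative to all reads of a library. In bulk RNA, fewer cells of a type and less RNA per cell cannot be told apart.

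The T cell markers were present in every library, with Cd3e between 306 and 464 RPKM and Cd4 between 212 and 315 RPKM. The summed level of the 7 T cell markers was 2167 to 2366 RPKM in unstimulated and 1382 to 1437 RPKM in stimulated libraries. Of 24 markers of B cells, myeloid cells, erythroid cells, CD8 T cells and NK cells in the table, 16 stayed below 1 RPKM in all libraries. The 4 NK markers summed to 22.1 to 25.6 RPKM in unstimulated and to 1.83 to 2.19 RPKM in stimulated libraries, the highest of them being Prf1. The 7 myeloid markers summed to 6.23 to 7.83 RPKM in unstimulated and 3.21 to 4.31 RPKM in stimulated libraries, and of 5 B cell markers 4 stayed below 1 RPKM, while Cd79a was at 2.87 to 3.38 RPKM in unstimulated and 4.15 to 4.73 RPKM in stimulated cells. Cd8b1, a CD8 T cell marker, was at 9.40 to 11.7 RPKM over all libraries, and Cd8a below 1 RPKM. Foxp3 lay between 4.48 and 7.69 RPKM, and Il2ra, which conventional T cells also switch on, was at 1.80 to 2.19 RPKM in unstimulated and at 94.0 to 117 RPKM in stimulated libraries. The 6 activation markers summed to 346 to 373 RPKM in unstimulated control and to 247 to 327 RPKM in unstimulated Cd libraries, without overlap, and to 1391 to 1477 RPKM after stimulation. Most of the sum in unstimulated cells came from Cd69 and Nr4a1. What these markers contribute to the results below was not tested.

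The OXPHOS mRNAs covered a wide range of levels, with a median of 45.3 RPKM over the 89 genes, 15 genes over 100 RPKM and 8 genes under 5 RPKM. The highest was Atp5b, the catalytic beta subunit of the ATP synthase, with a mean of 410.5 RPKM. Atp5a1, the alpha subunit, followed at 263 RPKM, and Cox4i1, the main isoform of a structural subunit of cytochrome c oxidase, at 236 RPKM. The highest of complex III was Uqcrh, the hinge protein, at 222 RPKM, that of complex I was the accessory subunit Ndufa3 at 113 RPKM, and that of complex II was Sdha, the flavoprotein of succinate dehydrogenase, at 97.3 RPKM. Within complex II the listed levels ran from 0.599 RPKM (Sdhd) to 97.3 RPKM (Sdha), Sdhd resting on 7 to 25 reads a library, and how completely reads of such genes were assigned was not tested.

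Some of the low levels belonged to genes with near copies elsewhere. For 88 of the 89 genes, a GENCODE M21 transcript was cut into windows of 100 bases, and the windows were looked for in the annotated transcripts of all other genes on either strand. No window was shared for 58 genes, and over 30% of windows were shared for 8 genes. These were Atp5l with 69.0% of windows, Ndufab1 with 62.7%, Atp5g1 with 48.1%, Atp5g2 with 41.4%, Ndufa12 with 38.3%, Cox7c with 36.2%, Ndufb4 with 33.4% and Atp5h with 32.7%. The 8 genes had a median level of 11.1 RPKM, against 51.3 RPKM for the 58 genes without shared windows. The 22 genes with up to 30% of windows shared were no lower than those 58, at a median of 53.8 RPKM. Since it is not given in the sources used here how reads with several matches were counted, the levels of these 8 genes, and their folds, are uncertain. Sdhd and Uqcr11, which were low or at 0, shared no window with another annotated transcript.

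Genes of this pathway are known to carry sites for NRF1, for GABP (NRF2) and for YY1 near their start. Promoters of 300 bases, 250 before to 50 after the start, were available for 75 of the 89 genes (RefSeq, GRCm38.p6) and were searched on both strands for GCGCATG (NRF1), CCGGAAG (GABP) and GATGGCG (YY1). At least 1 of these motifs was present in 34 of the 75 promoters (45.3%), against 30.9% of the promoters of 9164 genes that passed the level limit and 15.2% of all 27025 promoters. The NRF1 motif was in 18.7% of the OXPHOS promoters, against 7.51% among genes that passed the limit. The GABP motif was in 21.3%, against 20.0%, and the YY1 motif in 14.7%, against 7.16%. Of the promoters of genes that rose in control offspring, 26 of 54 held a motif (48.15%), and of the other 21 promoters, 8 did (38.1%). A match is a description of these letters and no proof of a bound site.

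The promoters of 4 genes are shown with the motif matches in capitals, because these genes, chosen after their values were seen, moved in different ways. Ndufb6, at chr4:40279372-40279671 (- strand), and Ndufaf4, at chr4:24897833-24898132 (+ strand), rose over 2-fold with stimulation. Cox6a1, at chr5:115348909-115349208 (- strand), was lower after stimulation in control offspring and not called in Cd offspring, and its promoter held all 3 kinds of motif. Cox7a2, at chr9:79759804-79760103 (- strand), had the lowest adjusted p of the 89 genes between unstimulated exposures, and its promoter held none.
Ndufb6: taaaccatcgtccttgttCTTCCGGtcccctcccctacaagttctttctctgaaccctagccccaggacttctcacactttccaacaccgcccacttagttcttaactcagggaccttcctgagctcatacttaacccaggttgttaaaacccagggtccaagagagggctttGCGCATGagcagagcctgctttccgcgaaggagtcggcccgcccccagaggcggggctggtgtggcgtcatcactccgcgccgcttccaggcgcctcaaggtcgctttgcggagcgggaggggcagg
Ndufaf4: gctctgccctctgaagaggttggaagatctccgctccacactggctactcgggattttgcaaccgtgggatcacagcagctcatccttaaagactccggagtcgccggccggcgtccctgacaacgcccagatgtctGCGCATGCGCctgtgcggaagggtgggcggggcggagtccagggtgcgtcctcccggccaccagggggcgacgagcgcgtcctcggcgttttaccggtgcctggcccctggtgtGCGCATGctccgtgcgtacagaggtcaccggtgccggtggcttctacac
Cox6a1: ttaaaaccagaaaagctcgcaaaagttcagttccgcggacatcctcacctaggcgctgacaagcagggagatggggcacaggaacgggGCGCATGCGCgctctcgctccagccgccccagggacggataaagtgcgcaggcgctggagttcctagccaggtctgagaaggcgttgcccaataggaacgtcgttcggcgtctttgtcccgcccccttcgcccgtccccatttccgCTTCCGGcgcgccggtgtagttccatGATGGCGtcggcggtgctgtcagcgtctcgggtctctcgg
Cox7a2: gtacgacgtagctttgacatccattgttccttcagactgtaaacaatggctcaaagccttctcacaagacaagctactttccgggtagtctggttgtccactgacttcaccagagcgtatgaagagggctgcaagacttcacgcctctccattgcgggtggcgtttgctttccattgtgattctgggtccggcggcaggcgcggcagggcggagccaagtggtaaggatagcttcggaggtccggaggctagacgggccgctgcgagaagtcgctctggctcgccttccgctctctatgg
In Ndufaf4 and Cox6a1, the run of 10 capitals holds the NRF1 motif in both orientations, overlapping.

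The stimulation of control offspring cells was examined first. OXPHOS mRNAs were mostly higher after 16 hours, by a median of 0.48 on the log2(RPKM + 0.1) scale, against a median of 0.07 over all 12605 genes. At an adjusted p under 0.05 (limma), 65 of the 89 genes were higher and 8 were lower, while 16 were not called. The shares among all genes tested were 36.9% higher and 27.8% lower. At the study's p and fold limits for stimulation (adjusted p under 0.01, fold over 2), 10 genes were higher and 1 was lower. This is 11.2% and 1.12% of the 89 genes. The shares among all genes tested were 11.5% and 7.17%. The OXPHOS genes were thus called higher more often than genes at large when any fold counted, but reached a 2-fold rise about as often as genes at large. The fold changes are on the log2(RPKM + 0.1) scale, which understates those of genes far below 1 RPKM.

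**Figure D1:**
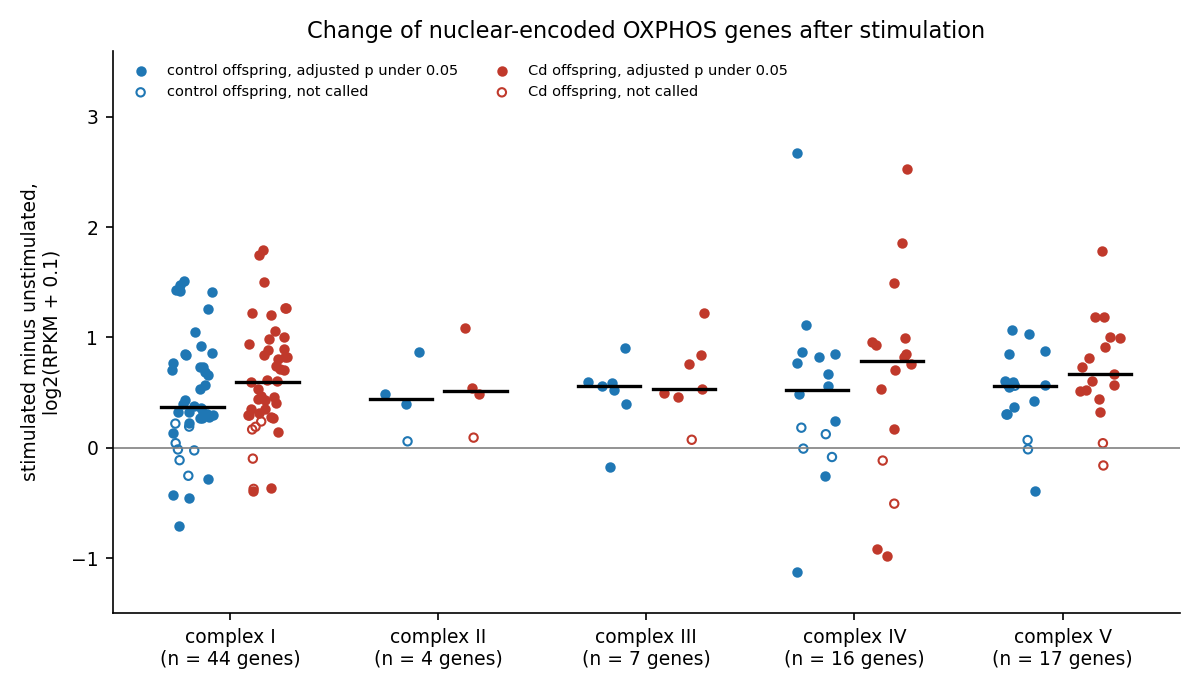
Change after stimulation on the log2(RPKM + 0.1) scale for each OXPHOS gene by complex, in control offspring (blue) and Cd offspring (red), with filled points for genes called at an adjusted p under 0.05, open points for the others and black bars for medians. The medians lie between 0.37 and 0.79 in all 5 complexes, and Cox7a2l lies lowest in both exposures.

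In complex I, all 7 core subunits, which carry the flavin, the iron-sulfur clusters and the ubiquinone site, rose in control offspring, by a median of 0.31. Ndufs8, an iron-sulfur subunit, was at 29.6 and 30.9 RPKM in the unstimulated and at 51.6 and 49.1 RPKM in the stimulated control libraries, a change of 0.73 ± 0.05 (log2, SE; adjusted p = 1.45e-05, limma). Ndufv2, another iron-sulfur subunit, rose by 0.69 ± 0.07 (adjusted p = 5.81e-05). The stimulated libraries lay above the unstimulated ones for both genes without overlap. Smaller rises were found for Ndufv1, the flavin subunit that accepts electrons from NADH (0.40), Ndufs3 (0.31), Ndufs1 (0.30) and Ndufs7 (0.29).

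The 29 accessory subunits of complex I, which surround the core, were more divided, with 19 higher and 3 lower. Ndufa12 was at 6.24 and 5.80 RPKM before and at 17.3 and 17.3 RPKM after stimulation in control offspring, a 2.85-fold rise (log2 1.51 ± 0.07, adjusted p = 1.79e-06), although 38.3% of its windows are shared with Gm15920, annotated as a processed pseudogene. Ndufb6 went from 33.3 and 30.2 RPKM to 83.9 and 93.1 RPKM, a 2.78-fold rise (log2 1.47 ± 0.07, adjusted p = 1.79e-06). These were the most strongly raised accessory subunits. Ndufab1, which is also the mitochondrial acyl carrier protein, rose by 1.42 ± 0.19, Ndufc2 by 1.25 ± 0.06 and Ndufb4 by 1.05 ± 0.24. Ndufv3, a subunit of the NADH-oxidizing module, went the other way, from 33.0 and 32.6 RPKM to 19.6 and 20.5 RPKM (log2 -0.71 ± 0.09, adjusted p = 0.000287). Ndufb11 (-0.43) and Ndufb10 (-0.29) also fell. Ndufc2 and Ndufb10 were chosen after their values were seen.

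Of the 8 assembly factors of complex I, 7 rose and 1 fell. Ndufaf2, a chaperone of late assembly, was at 4.82 and 5.32 RPKM before and at 15.9 and 12.0 RPKM after stimulation in control offspring (log2 1.43 ± 0.15, adjusted p = 9.67e-05). Ndufaf4 went from 6.08 and 6.37 RPKM to 16.7 and 16.7 RPKM (log2 1.41 ± 0.06, adjusted p = 1.71e-06). Ndufaf7, a methyltransferase of early assembly, rose by 0.85 ± 0.07. Ndufaf3 fell by 0.46 on the log2 scale (SE 0.15, adjusted p = 0.0252), its libraries going from 7.87 and 10.3 RPKM to 6.03 and 7.08 RPKM.

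In complex II, the catalytic subunit Sdha stood at 99.2 and 92.7 RPKM in unstimulated and at 101 and 98.8 RPKM in stimulated control libraries, and the change was not called (log2 0.06 ± 0.05, adjusted p = 0.325). The iron-sulfur subunit Sdhb rose by 0.39 ± 0.06 and the membrane anchor Sdhc by 0.49 ± 0.05. Sdhd, the other anchor, rose by 0.87 ± 0.26 (adjusted p = 0.0214) at 0.389 and 0.573 RPKM before and 0.901 and 1.0 RPKM after, which rests on 9 to 25 reads a library.

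In complex III, 6 of 7 genes rose. Uqcrc1 and Uqcrc2, the core proteins, rose by 0.52 ± 0.05 and 0.56 ± 0.05, and Uqcrfs1, the Rieske iron-sulfur protein, by 0.40 ± 0.11. Uqcrq, a small subunit chosen after its values were seen, went from 66.3 and 64.4 RPKM to 114 and 132 RPKM (log2 0.91 ± 0.08, adjusted p = 3.75e-05). The hinge protein gene Uqcrh fell by 0.17 on the log2 scale (SE 0.05, adjusted p = 0.0166).

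In complex IV, 7 of the 11 nuclear-encoded subunits expressed broadly rose in control offspring and 1 fell. Ndufa4, once assigned to complex I and now counted as a subunit of complex IV, went from 99.2 and 90.3 RPKM to 157 and 167 RPKM (log2 0.77 ± 0.06, adjusted p = 2.56e-05). Cox6b1, which joins the monomers of the dimer, rose by 0.48 ± 0.05, and Cox7a2 by 0.56 ± 0.09. Cox4i1 was at 249 and 232 RPKM before and at 231 and 247 RPKM after stimulation, so that its libraries overlapped and no change was called (log2 -0.01 ± 0.06, adjusted p = 0.914). Cox6a1 fell by 0.26 on the log2 scale (SE 0.06, adjusted p = 0.00768), and Cox8a was not called (0.18 ± 0.10).

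The largest decrease of all 89 genes was that of Cox7a2l (also SCAF1), which joins complexes III and IV in supercomplexes. It was at 198 and 167 RPKM before and at 80.7 and 85.9 RPKM after stimulation in control offspring (log2 -1.13 ± 0.08, adjusted p = 1.23e-05). In Cd offspring it went from 169 and 172 RPKM to 87.1 and 84.9 RPKM (log2 -0.99 ± 0.08, adjusted p = 2.53e-05). All 4 stimulated libraries lay below all 4 unstimulated ones.

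In complex V, 13 of 17 genes rose and 1 fell. Atp5b went from 302 and 288 RPKM to 532 and 528 RPKM in control offspring (log2 0.85 ± 0.05, adjusted p = 7.13e-06). The alpha subunit gene Atp5a1 rose by 0.58 ± 0.05 and the gamma subunit gene Atp5c1, which encodes the rotating stalk, by 0.30 ± 0.05. Subunit c, which builds the rotor ring, is encoded by Atp5g1, Atp5g2 and Atp5g3 as the same mature protein. All 3 rose, by 1.07 ± 0.15, 1.03 ± 0.15 and 0.87 ± 0.05. Atp5g3 alone went from 161 and 149 RPKM to 278 and 290 RPKM and made up 92.1% to 94.2% of the summed RPKM of the 3 genes in control libraries. Atp5k, a membrane subunit linked to the dimer of the enzyme, rose by 0.57 ± 0.10. Atp5sl, which takes part in complex I assembly despite its name, was the gene that fell (-0.39 ± 0.10), and is named for this count.

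**Figure D2:**
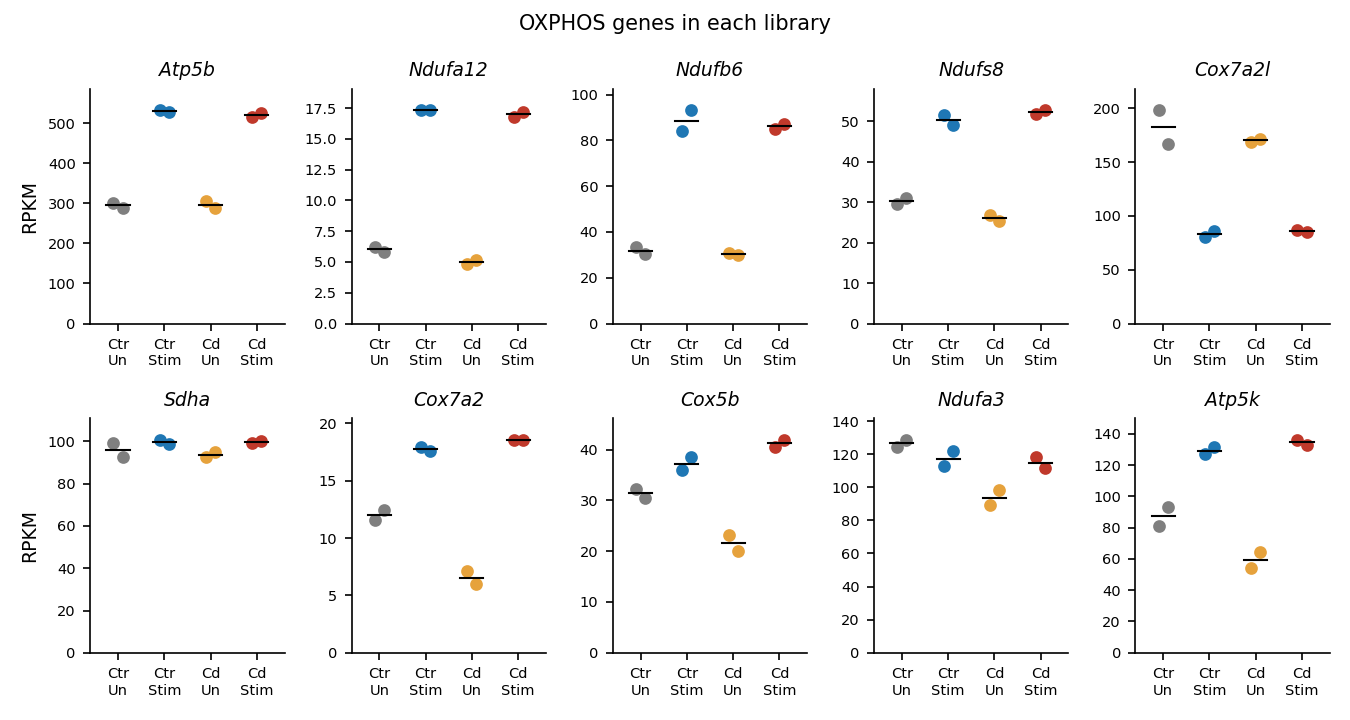
RPKM of 10 OXPHOS genes in each of the 8 libraries (points, 2 per group) with group means (bars), for unstimulated (Un) and stimulated (Stim) cells of control (Ctr) and Cd offspring. Atp5b, Ndufa12, Ndufb6 and Ndufs8 are higher and Cox7a2l is lower in all stimulated libraries, and Cox7a2 is at 6.01 to 7.10 RPKM in unstimulated Cd libraries, below the 11.6 to 12.5 RPKM of unstimulated control libraries.

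Isoforms known from other tissues were present at low levels. Cox4i2, the lung and hypoxia isoform of COX4, was at 0.459 and 0.169 RPKM before and at 2.48 and 2.26 RPKM after stimulation in control offspring (log2 2.67 ± 0.36, adjusted p = 0.000363), and at 0.283 and 0.201 RPKM before and 1.69 and 2.05 RPKM after in Cd offspring (log2 2.53 ± 0.36, adjusted p = 0.000495). The unstimulated values rest on 2 to 6 reads a library. Its changes depend on the pseudocount, being 1.37 and 1.21 with a pseudocount of 1 RPKM, and it stayed at no more than 1.06% of the summed RPKM of Cox4i1 and Cox4i2. Cox6b2, the testis isoform of COX6B, rose by 1.11 ± 0.34 and 1.86 ± 0.34 in control and Cd offspring and reached no more than 1.64% of COX6B. Cox7a1, the heart and muscle isoform of COX7A, was not called in any comparison, at 2.98 to 5.36 RPKM. Cox8b, the muscle isoform of COX8, rose in control offspring (0.82 ± 0.28, adjusted p = 0.032) and fell in Cd offspring (-0.92 ± 0.28, adjusted p = 0.0199), on 2 to 9 reads a library. Both calls were lost with limma voom on recovered reads (adjusted p = 0.198 and 0.0848), the changes were 0.34 and -0.46 with a pseudocount of 1 RPKM, and the difference of these changes was not called (-1.74 ± 0.39, adjusted p = 0.178).

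The same stimulation was then followed in Cd offspring. The median change was 0.61, against 0.05 over all genes, with 73 genes higher and 4 lower at an adjusted p under 0.05 and 12 not called. The shares among all genes tested were 36.5% higher and 29.4% lower. At the study's p and fold limits, 18 genes were higher (20.2%) and 0 lower, against 11.4% and 7.24% of all genes tested. The adjusted p of Cox7a2l is under 0.01 here too, but its fold stayed just under 2. Of the 89 genes, 63 rose in both exposures, which is 96.9% of those that rose in control and 86.3% of those that rose in Cd offspring, and 3 fell in both (Ndufb11, Ndufv3 and Cox7a2l). Of all genes tested, 32.2% rose in both exposures, which is 87.2% of those that rose in control and 88.3% of those that rose in Cd offspring. The genes over 2-fold higher in both were Ndufa12, Ndufab1, Ndufb6, Ndufc2, Ndufaf2, Ndufaf4, Cox4i2, Atp5g1 and Atp5g2. The changes of the 2 exposures, which share no library, had a Pearson r of 0.84 over the 89 genes, as a description of genes that are not independent.

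**Figure D3:**
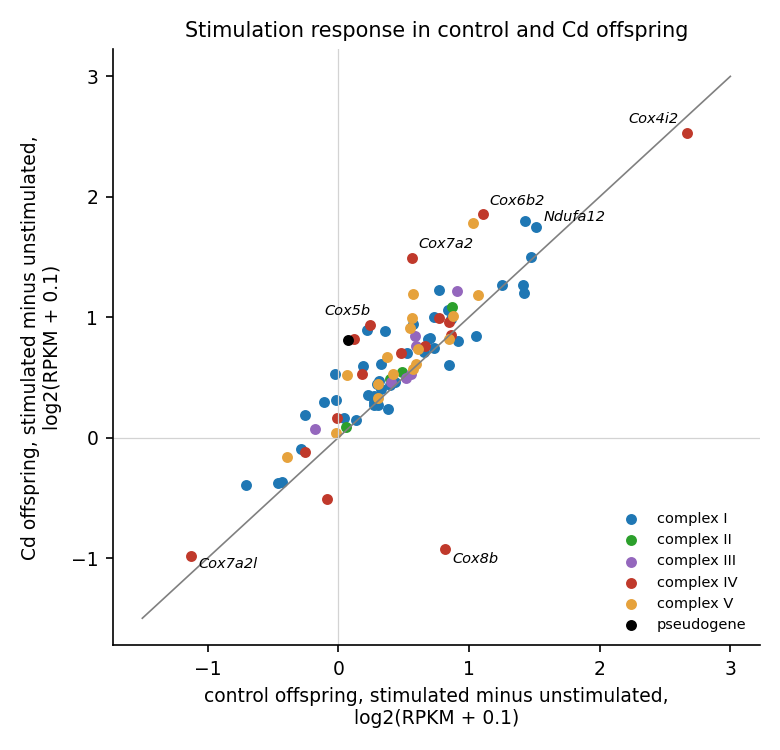
Change after stimulation on the log2(RPKM + 0.1) scale in control offspring (x axis) against Cd offspring (y axis), 1 point per OXPHOS gene coloured by complex, with the line of equal change in grey. Most points lie on or above the line, 73 of 89 being above it, and Cox7a2 lies above it by 0.93.

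In Cd offspring, Atp5b went from 305 and 288 RPKM to 516 and 526 RPKM (log2 0.82 ± 0.05), and Ndufb6 from 30.8 and 29.9 RPKM to 85.1 and 87.3 RPKM (2.84-fold). Ndufa12 went from 4.86 and 5.12 RPKM to 16.8 and 17.2 RPKM (log2 1.75 ± 0.07), and Ndufaf2 from 3.86 and 4.58 RPKM to 15.7 and 14.0 RPKM (log2 1.79 ± 0.15). Sdha was again not called, at 92.5 and 94.9 RPKM before and 99.3 and 100.4 RPKM after (log2 0.09 ± 0.05, adjusted p = 0.132). Atp5g2 rose by 1.79 ± 0.15, against 1.03 ± 0.15 in control offspring, and Ndufs8 went from 26.7 and 25.3 RPKM to 51.7 and 52.6 RPKM, and for neither gene was the difference of these changes called (adjusted p = 0.276 and 0.283). Genes not called in control but higher in Cd offspring included Cox7c (0.12 and 0.82), Ndufs5 (0.22 and 0.89) and Cox4i1 (-0.01 and 0.17). The difference of the changes was not called for any of these (adjusted p = 0.126, 0.197 and 0.498, limma).

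Across the 89 genes, 73 had a larger change in Cd than in control offspring, and the median difference of the changes was 0.13 (-0.01 over all genes). For each gene, this equals Cd minus control in stimulated cells less Cd minus control in unstimulated cells. The medians of those were 0.00 and -0.13. For the set, the larger change thus mostly restates the lower unstimulated levels given below, and is no separate result. An unadjusted p under 0.05 was found for 28 of the 89 genes, against 10.6% of all genes. After adjustment only Cox7a2 passed (1.12%), with a larger response in Cd offspring, against 0.301% of all genes tested with a larger and 0.0555% with a smaller response. Cox7a2, the broadly expressed isoform of subunit VIIa of cytochrome c oxidase, was at 11.6 and 12.5 RPKM in unstimulated control libraries and at 17.9 and 17.6 RPKM in stimulated ones. In Cd offspring it was at 7.10 and 6.01 RPKM unstimulated and at 18.5 and 18.6 RPKM stimulated. The stimulated levels of the exposures lay close together, and the unstimulated levels did not overlap. Its changes were 0.56 ± 0.09 and 1.49 ± 0.09, and their difference was 0.93 ± 0.12 (adjusted p = 0.0405, limma), with an adjusted p of 0.0315 to 0.128 over the alternatives. It shared no window with another annotated transcript and rested on 93 to 357 reads a library. Its share of the summed RPKM of the isoforms Cox7a1 and Cox7a2 was 69.9% to 82.2% in control libraries, 58.4% and 53.7% in unstimulated Cd libraries and 86.1% and 81.2% in stimulated Cd libraries. The call was lost without either control unstimulated library (difference 0.98 without replicate 6 and 0.88 without replicate 7), without either control stimulated library (0.94 and 0.92) and without either Cd stimulated library (0.93 in each case).

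The exposures were compared directly in unstimulated cells. Levels in Cd offspring were lower for 76 of the 89 genes, with a median difference of -0.13 (Cd minus control, log2(RPKM + 0.1)), against 0.01 over all genes. At an adjusted p under 0.05, 0 genes were higher and 3 were lower (3.37%), against 0.135% and 0.762% of all genes tested, and 37 of the 89 had an unadjusted p under 0.05, against 13.9% of all genes. The 2 Cd libraries lay below both control libraries for 47 genes (52.8%) and above both for 3 genes (3.37%). The same was found for 20.0% and 22.3% of all genes tested. The lower levels were thus spread over many genes at small size, and few passed the test one by one. The summed activation markers were lower in the same Cd libraries, the sum resting mostly on Cd69 and Nr4a1. Cd69 was at 156 and 136 RPKM in control and 116 and 106 RPKM in Cd libraries. Nr4a1 was at 177 and 173 RPKM in control and 165 and 104 RPKM in Cd libraries. Il2 was also lower without overlap, but Il2ra was higher without overlap, and Myc and Irf4 overlapped. The part of these markers in the difference of the OXPHOS genes was not tested.

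The called genes were Cox7a2, Cox5b and Ndufa3. Cox7a2 had the values given above (-0.87 ± 0.09, adjusted p = 0.00966). Cox5b, a zinc-binding subunit of complex IV, was at 32.3 and 30.5 RPKM in control and at 23.2 and 20.0 RPKM in Cd libraries (-0.54 ± 0.08, adjusted p = 0.0334). Ndufa3 was at 125 and 129 RPKM in control and at 89.1 and 98.5 RPKM in Cd libraries (-0.44 ± 0.07, adjusted p = 0.0383). The groups did not overlap for any of the 3 genes. None of the 89 genes was called without the mean-variance trend or with only the 4 libraries of the comparison in the fit, and all 3 were among 6 genes called with limma voom on recovered reads. Without 1 of the control unstimulated libraries, either replicate 6 or replicate 7, none of the 89 genes was called, and only Cox7a2 was called without either stimulated library of control or of Cd offspring. Without Cd unstimulated replicate 7, 6 genes were called, and Cox5b was not among them.

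Among genes that missed the threshold, Atp5k was at 80.9 and 93.5 RPKM in control and at 54.0 and 64.4 RPKM in Cd libraries (-0.56 ± 0.10, adjusted p = 0.0535). Atp5h, a subunit of the peripheral stalk, differed by -0.50 ± 0.09 (adjusted p = 0.0696), and Ndufa7 by -0.46 ± 0.08 (adjusted p = 0.0652). These last 2 were chosen after their values were seen. By complex, the median difference was -0.11 in complex I, -0.10 in complex II, -0.10 in complex III, -0.16 in complex IV and -0.14 in complex V. Of the 3 highest genes, Atp5b stood at 0.01 ± 0.05, Atp5a1 at -0.01 ± 0.05 and Cox4i1 at -0.13 ± 0.06, and Uqcrh, the highest of complex III, at -0.19 ± 0.05, none of them called. The values nearest to a rise at 5 RPKM or more were Ndufaf7 (0.11), Ndufb2 (0.10) and Ndufab1 (0.08), none of them called.

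The OXPHOS genes were also set beside other short mRNAs, because their median transcript length was 693 nucleotides, against 2494 over all genes tested. Cytosolic ribosomal protein genes were chosen for this, being as short (median 693.5 nucleotides, 84 genes). In unstimulated cells, the 35 OXPHOS genes of up to 600 nucleotides had a median difference of -0.26, with 32 below 0. The 54 longer ones had a median of -0.09, with 44 below 0. Ribosomal protein genes stood at -0.63 up to 600 nucleotides (34 genes) and at -0.40 above (50 genes). All other genes stood at -0.01 up to 600 nucleotides (1003 genes) and at 0.01 above (11429 genes). The first of these medians joins 658 genes of up to 400 nucleotides at 0.06 with 345 genes over 400 and up to 600 nucleotides at -0.10, of which 208 were below 0, and the next 455 genes, of up to 800 nucleotides, were at -0.09. Lower levels were thus also found among other mRNAs of 400 to 800 nucleotides, at a smaller size. Over 400 and up to 600 nucleotides, the medians were -0.25 for 29 OXPHOS genes and -0.55 for 29 ribosomal protein genes. Called lower were 2 of the 35 OXPHOS genes of up to 600 nucleotides (5.71%), against 28 of the 1003 other genes of that length (2.79%), and 14 of the 345 (4.06%). In this range of length, the OXPHOS genes lay between the ribosomal protein genes and the rest, a description for which no test of the sets was made. The part of length in the difference between exposures was not tested.

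**Figure D4:**
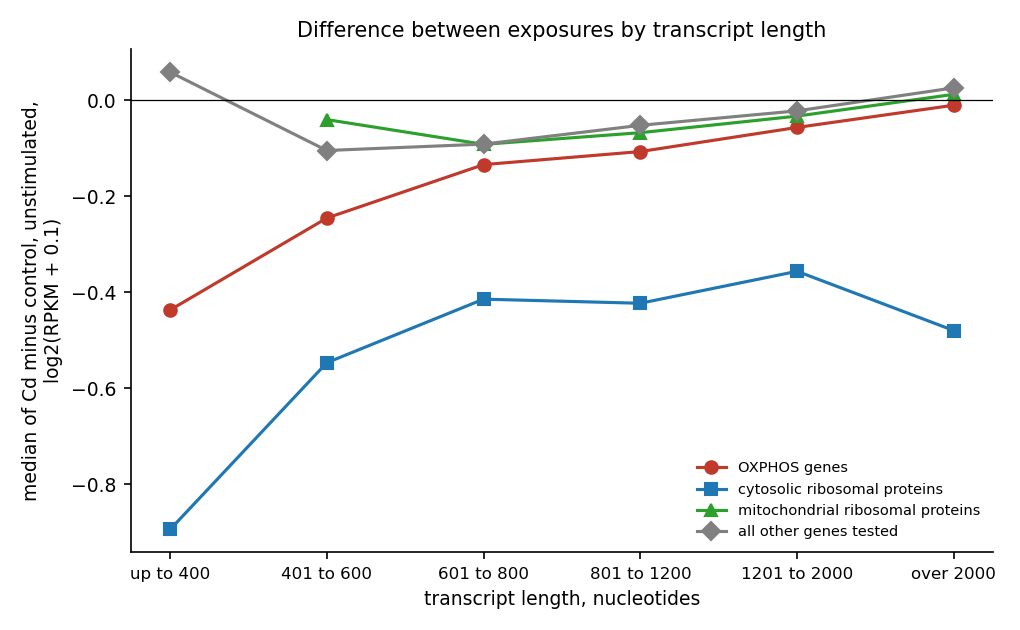
Median difference between Cd and control offspring in unstimulated cells (log2(RPKM + 0.1)) against transcript length for OXPHOS genes, cytosolic and mitochondrial ribosomal protein genes and all other genes tested. OXPHOS genes go from -0.44 at up to 400 nucleotides (6 genes) to -0.01 over 2000 nucleotides (8 genes), and lie above the cytosolic ribosomal protein genes at every length.

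Within the 89 genes, length and the difference between exposures had a Spearman rho of 0.45, as a description of genes measured in the same 4 libraries. After a trend with length fitted in each library was subtracted, the median difference shrank from -0.13 to -0.06 with 67 genes below 0, and Cox7a2 (-0.80, adjusted p = 0.0148) and Cox5b (-0.44, adjusted p = 0.0441) were called, whereas Ndufa3, a transcript of 349 nucleotides, was not (-0.32, adjusted p = 0.105). Mitochondrial ribosomal protein genes, which share the organelle but are longer, differed by -0.05 in the median, with 56 of 76 below 0 and 0 called. The 37 proteasome genes differed by -0.01, with 22 below 0 and 0 called. By contrast, 28 of the 84 cytosolic ribosomal protein genes were called lower.

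After stimulation, no OXPHOS gene passed the test between the exposures. The median difference was 0.00 (log2), with 45 genes above and 44 below 0, none of them called. Of all genes tested, 0% were called with limma, although 414 had an unadjusted p under 0.05, and limma voom called 0 as well. Some other settings called a few genes, such as 6 higher and 3 lower with no filter, and 1 higher and 1 lower without the trend. A few were also called without control stimulated replicate 7 or without either control unstimulated library. No OXPHOS gene was called in any of these settings. An unadjusted p under 0.05 was found for 1 of the 89 genes. Cd libraries lay above both control libraries for 14 genes (15.7%) and below both for 20 genes (22.5%), against 16.0% and 20.6% of all genes tested. Values for the genes that differed most at 5 RPKM or more were 0.29 ± 0.09 for Cox7c, 0.27 ± 0.15 for Atp5g2 and 0.21 ± 0.11 for Ndufs5 on the higher side. On the lower side they were -0.35 ± 0.24 for Ndufb4, -0.15 ± 0.07 for Ndufb11 and -0.14 ± 0.19 for Ndufab1.

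The mitochondrially encoded partners of these complexes went a different way. The 13 subunit genes of mitochondrial DNA had a median change of -0.46 with stimulation in control offspring (-0.16 under quantile normalization), with 7 lower and 0 higher, while 65 of the 89 nuclear genes were higher. Among all genes tested, 27.8% were lower and 36.9% higher in that stimulation. COX1, the catalytic subunit of complex IV, was at 8515 and 7614 RPKM before and at 5104 and 5021 RPKM after stimulation in control offspring (log2 -0.67 ± 0.12, adjusted p = 0.00182), and at 7314 and 7756 RPKM before and 4697 and 4423 RPKM after in Cd offspring (log2 -0.72 ± 0.12, adjusted p = 0.00123). CYTB, the cytochrome b of complex III, fell by 0.54 and by 0.51 on the log2 scale (SE 0.10 each). ND1, the first membrane subunit of complex I, was not called (-0.03 and 0.01). CYTB and ND1 were chosen after their values were seen. In Cd offspring the median change over the 13 genes was -0.05, and it turned to 0.12 under quantile normalization. There, 3 of the 13 genes were lower and 2 higher, against 29.4% and 36.5% of all genes tested. Lower calls were thus no more frequent in Cd offspring than among genes at large.

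The summed RPKM of the 89 nuclear genes was 5013 and 4787 before and 6343 and 6531 after stimulation in control offspring, and 4442 and 4369 before and 6421 and 6514 after in Cd offspring. That of the 13 mitochondrial genes was 25926 and 22526, then 18373 and 17941, and 19921 and 22343, then 17443 and 15941. The ratio of the nuclear to the mitochondrial sum was 0.193 and 0.213 before and 0.345 and 0.364 after stimulation in control offspring. The Cd libraries had ratios of 0.223 and 0.196 before and of 0.368 and 0.409 after. The ratio was higher in all 4 stimulated libraries than in all 4 unstimulated ones, and the exposures overlapped in unstimulated cells.

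**Figure D5:**
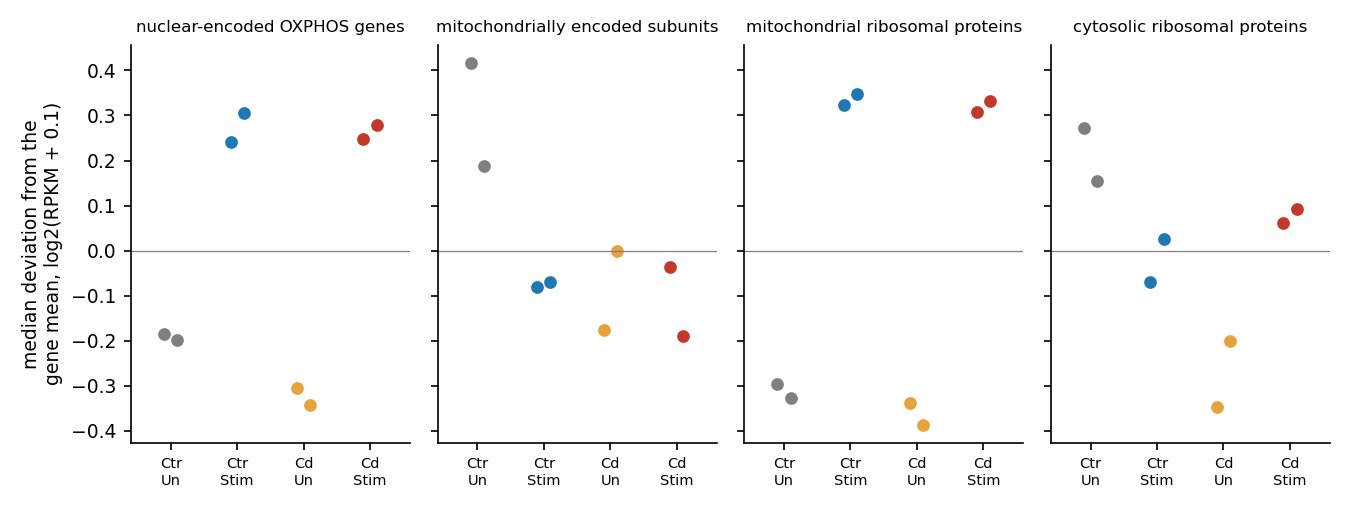
Median deviation of the genes of a set from their own mean over 8 libraries (log2(RPKM + 0.1)), 1 point per library, for nuclear-encoded OXPHOS genes, mitochondrially encoded subunits, mitochondrial ribosomal proteins and cytosolic ribosomal proteins. The nuclear OXPHOS genes are at -0.34 to -0.19 in unstimulated and at 0.24 to 0.31 in stimulated libraries, while the mitochondrially encoded subunits are highest, at 0.19 and 0.42, in unstimulated control libraries.

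Within the mitochondrial set, COX2, ATP8, ATP6, COX3, ND3 and ND4L, which lie side by side, were set apart after their values were seen. They were low for mitochondrial genes, at 144 to 632 RPKM, against 1072 to 6306 RPKM for the other 7. In unstimulated cells their values were -1.18 to -0.63 (Cd minus control), against -0.18 to -0.06 for the other 7. Of the 6, COX2, ATP6, COX3 and ND4L were called, and ATP8 (-1.18 ± 0.33, adjusted p = 0.204) and ND3 (-0.64 ± 0.21, adjusted p = 0.253) were not. COX3, the third core subunit of complex IV, was at 682 and 641 RPKM in control and at 354 and 431 RPKM in Cd unstimulated libraries (-0.76 ± 0.10, adjusted p = 0.0239), and ND4L, a membrane subunit of complex I, at 363 and 331 RPKM and at 189 and 212 RPKM (-0.79 ± 0.09, adjusted p = 0.0125). These 6 are 204 to 784 nucleotides long and the other 7 are 519 to 1824 nucleotides long. How reads that also match nuclear copies of mitochondrial DNA were counted is not given in the sources used here.

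Other genes of mitochondrial metabolism were followed in control offspring for comparison. In that stimulation, 36.9% of all genes tested were higher and 27.8% lower, with a median of 0.07. Of 18 genes of the tricarboxylic acid cycle and pyruvate dehydrogenase, 14 were higher after stimulation and 0 lower, with a median of 0.34, the most changed at 5 RPKM or more being Fh1, the fumarase (1.36), and Idh3a, a subunit of isocitrate dehydrogenase (1.32). Of 38 assembly factors that the symbol rule does not reach, 25 were higher and 4 lower, with a median of 0.33. The most changed at 5 RPKM or more were Lrpprc, which stabilizes mitochondrial mRNAs (1.22), and Acad9 of complex I assembly (1.12). Of 12 genes for cytochrome c and ubiquinone synthesis, 7 were higher and 2 lower, among them Coq7 (1.87) and Coq2 (0.42), both enzymes of ubiquinone synthesis. Of 76 mitochondrial ribosomal protein genes, 63 were higher and 3 lower (median 0.66).

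Regulators of mitochondrial biogenesis moved less as a list, with 7 of 16 higher and 3 lower and a median of 0.09. Their median was close to the 0.07 of all genes tested, of which 36.9% were higher and 27.8% lower. Pprc1, a coactivator of the PGC-1 family, rose by 1.37, and Polg2, the accessory subunit of the mitochondrial DNA polymerase, fell by 0.94 on the log2 scale. Of the factors whose motifs were searched, named for that reason, Nrf1 fell by 0.19 (adjusted p = 0.0385, limma) and Yy1 was not called (0.10). The GABP subunit genes were divided. Gabpa and Gabpb1 rose by 0.41 and 0.80, and Gabpb2 fell (-0.27, adjusted p = 0.00396, limma). In unstimulated cells, 0 genes of the tricarboxylic acid cycle, ubiquinone and regulator lists differed between exposures, and 1 assembly factor was lower, Uqcc3 of complex III (-0.34, adjusted p = 0.0347), which was named for this count.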

How the data were processed

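RNA-seq of 8 libraries was used, 2 for each combination of exposure and stimulation. The authors mapped paired reads to mm10 (Subread) and assigned them to RefSeq transcripts (featureCounts). Versions, the strand setting and the treatment of reads with several matches are not given in the sources used here. The deposited values are on a log2 scale, as log2(RPKM + 1) + 0.0001 for 27179 genes. They were turned back to RPKM, although linear RPKM had been planned for, and whole reads were recovered from their steps (15542732 to 25486791 a library).

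Genes with a mean of at least 0.5 RPKM (12605) were tested on log2(RPKM + 0.1) with limma 3.58.1 (R 4.3.3), with 4 group means, 4 residual degrees of freedom, a mean-variance trend and Benjamini-Hochberg adjustment over all genes tested. Calls have an adjusted p under 0.05, and the study's limit for stimulation (under 0.01 and over 2-fold) stands beside it. Members, lists and tests were chosen with earlier results of these data known. Named were the 3 largest increases and decreases of each comparison at 5 RPKM or more, core subunits (1 is not reported here), paralogs, the highest genes, those at the level limit and the 2 most changed genes of each other list at 5 RPKM or more. The fit was tested on simulated data. Alternatives were other pseudocounts, filters, scalings, blocks, no trend, voom on recovered reads, a length trend and leaving out each library.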

Additional observations from a re-analysis of the deposited data

Results flagged for a closer look

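Cox7a2, the broadly expressed isoform of cytochrome c oxidase subunit VIIa, stood out because its response to stimulation differed between the exposures by a direct test. It rose by 0.56 ± 0.09 (log2, SE) in control and by 1.49 ± 0.09 in Cd offspring, a difference of 0.93 ± 0.12 (adjusted p = 0.0405, limma). Both unstimulated Cd libraries (7.10 and 6.01 RPKM) lay below both unstimulated control libraries (11.6 and 12.5 RPKM), and the stimulated levels differed by 0.06 (log2). With each alternative the difference kept its direction, at 0.81 to 1.05, and the adjusted p ran from 0.0315 to 0.128. It was no longer called without the filter, with either replicate block, without the trend, and without any 1 of the control libraries or of the stimulated Cd libraries. The cause was not tested.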

How the results depend on the processing

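Of 2161 recomputed values for 109 gene results and the summaries, 2007 kept their direction and their side of the threshold or moved by less than the replicate spread. At an adjusted p under 0.05 with any fold, 73 in place of 11 genes were called for stimulation in control and 77 in place of 18 in Cd offspring. The median change in control offspring (0.48) was 0.42 with a pseudocount of 1 RPKM, 0.40 with median-of-ratios scaling, 0.36 with quantile normalization, which moved the median of all genes from 0.07 to -0.03, and 0.42 with the length trend subtracted. That in Cd offspring (0.61) was 0.58, 0.56, 0.58 and 0.56 under the same settings. With the length trend subtracted, the median between unstimulated exposures went from -0.13 to -0.0579 and that of the difference in response from 0.13 to 0.0605. Leaving out 1 library gave medians of 0.449 to 0.51 for stimulation in control offspring and of 0.10 to 0.17 for the difference in response.

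The 3 genes called between unstimulated exposures became 1 with no filter, 0 with no trend, 0 with only the libraries of the comparison, 6 with voom and 0 to 6 when 1 library was left out. The 1 gene called for the difference in response (Cox7a2) became 0 with no filter and 0 with no trend, 2 with voom and 0 to 2 when 1 library was left out.

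Directions turned in 17 values. For stimulation in control offspring, Sdha was at -0.0204 with median-of-ratios scaling and at -0.0254 with the length trend subtracted, Cox4i1 at 0.121 and Uqcrh-ps1 at -0.000237 with quantile normalization, and Cox7a1 at 0.050 and Ndufa3 at 0.0218 with the length trend subtracted. In Cd offspring, Uqcrh was at -0.0148 with the length trend subtracted. When 1 library was left out, the change in control offspring ran from -0.0605 to 0.045 for Cox4i1, which turned without replicate 6 of either control group, from -0.450 to 0.282 for Cox7a1, which turned without control unstimulated replicate 7, and from -0.420 to 0.563 for Uqcrh-ps1, which turned without control unstimulated replicate 6 or control stimulated replicate 7. In Cd offspring it ran from -0.00755 to 1.63 for Uqcrh-ps1, which turned without Cd unstimulated replicate 6. Between unstimulated exposures it ran from -0.240 to 0.398 for Ndufab1, which turned without replicate 6 of either unstimulated group. The difference in response ran from -0.538 to 0.0991 for Ndufab1, which turned without control unstimulated replicate 6, and from -0.578 to 0.161 for Ndufb4, which turned without Cd unstimulated replicate 7. The cause was not tested for any of these.

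Same-numbered libraries hardly deviated together, with r from -0.11 to 0.06 over the 6 pairs of groups, so the numbers were not taken to pair them. With the number as a replicate block, 12 and 17 genes passed the study's p and fold limits for stimulation in control and Cd offspring. For unstimulated exposures and the difference in response, 2 and 0 were called, and with a block by exposure and number 0 for the last.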
